A study of Mus musculus with 14 samples.

Results

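The retina of mice at postnatal day 22 (P22) that lack the long noncoding RNA Peanut was compared with that of heterozygous mice of the same age. Libraries were chosen by their labels for age and genotype, which gave 6 of the 14 libraries of the study. Het denotes Peanut +/- retinas (2 libraries) and KO denotes Peanut -/- retinas (4 libraries). The other 8 libraries, from retinas of newborn mice (P0), enter 1 comparison near the end. Each label gives a retina and its Peanut genotype, with no strain, sex or other allele, and does not state what part of the gene was deleted. Both groups carry at least 1 disrupted copy of Peanut, and no wild-type retina was analysed here. Labels do not say whether libraries of a group came from separate animals or litters, so p-values measure only the spread between these libraries, which may be technical. RNA came from whole retina, so each value is a sum over its cell types.

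Depth was uneven. Het replicate 1 held 1819688 reads, and the other 5 libraries held 11044462 to 22813199. Levels are given as normalised CPM, which are reads scaled to the library total (CPM) and by the trimmed mean of M-values (TMM). Before TMM scaling, 3 reads correspond to 1.65 CPM in het replicate 1 and to at most 0.272 CPM in the other libraries. No entry of the P22 table carries the name of the targeted RNA, so its loss was not checked here. Transcripts of the mitochondrial genome made up 7.77% and 7.10% of reads in het and 10.5% to 12.5% in KO. Summed levels of 4 Y-linked genes were 245 to 381 CPM in 5 libraries and 0.22 CPM in KO replicate 2. The part of the mitochondrial share and of the Y-linked difference in the results was not tested. No pair of libraries was alike within sampling noise.

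Most cells of the mouse retina are rod photoreceptors. In a rod, light in the discs of the outer segment leads to activation of the G protein transducin, and transducin activates a phosphodiesterase that lowers cyclic GMP, so that cyclic nucleotide-gated channels close. Cones use a parallel set of proteins, and both signal through ribbon synapses to bipolar and horizontal cells, while Müller glia span the tissue and clear potassium, water and glutamate.

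Calls among photoreceptor transcripts were mostly lower in KO than in het retina, and calls among transcripts of Müller glia, bipolar cells and synaptic receptors were mostly higher. Of 11613 genes tested by quasi-likelihood in edgeR, 1295 (11.2%) were called at a Benjamini-Hochberg adjusted p under 0.05. In KO, 551 (4.74%) were called higher and 744 (6.41%) lower. Counts of calls in each list below are to be read beside these shares. Every KO library lay above both hets in 20.3% of genes and below both in 20.4%, together 40.7%. With library totals in place of TMM, 1073 genes were called higher and 415 lower, and the median log2 fold change over all genes moved from 0.04 to 0.17. The count of calls was 344 without KO replicate 1, 590 without KO replicate 2, 612 without het replicate 2 and 1004 without the shallow het replicate 1. Long nuclear RNAs, whose share can vary with RNA quality, were summed as a check. Over the 8 measured, they were at 10840 and 13940 CPM in het and 17650, 15690, 18700 and 20310 CPM in KO, with no overlap, 1 was called higher and 0 lower, and their part in the results was not tested.

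**Figure D1:**
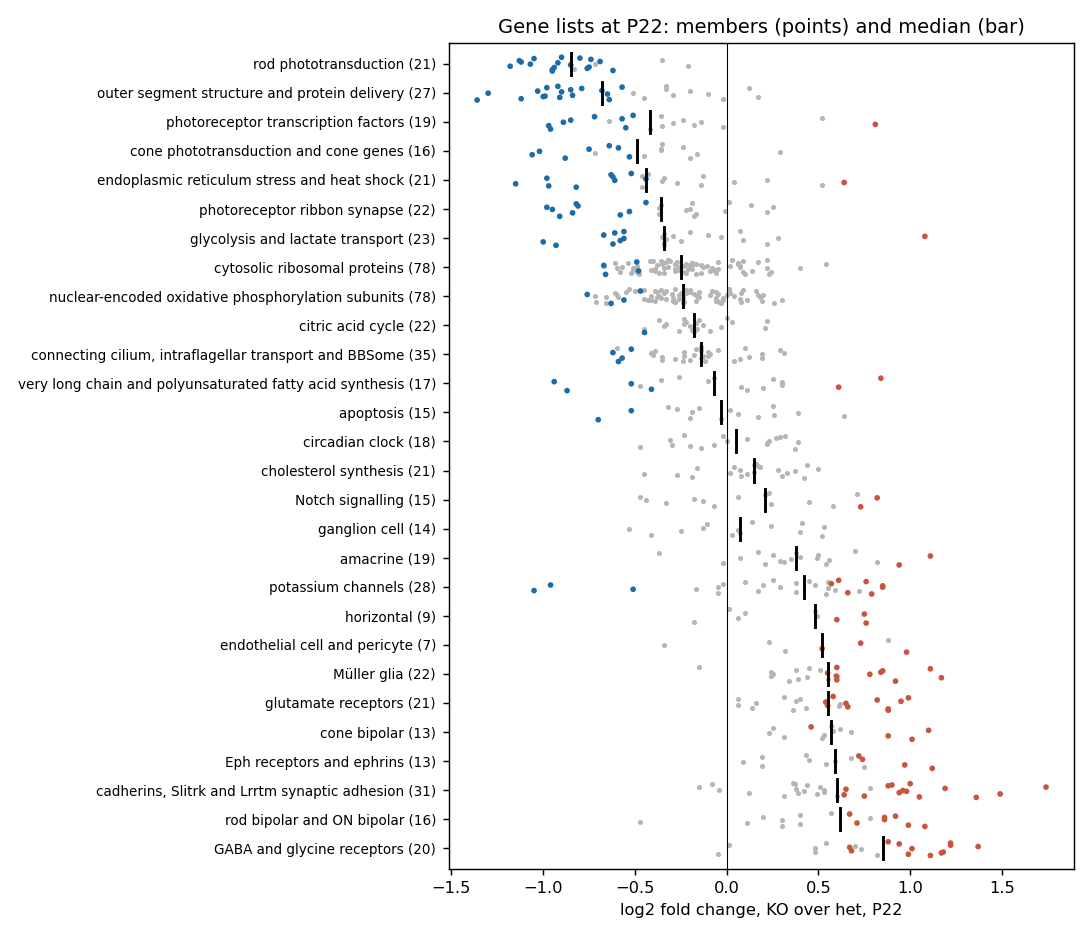
Each point is 1 gene of a list and the black bar is the median of the list. The x axis gives the log2 fold change of KO over het at P22 with TMM scaling, the number of measured genes is in brackets, and blue and red points are genes called lower and higher by edgeR (adjusted p under 0.05). Medians are -0.85 for rod phototransduction and -0.68 for the outer segment, left of 0, and 0.85 for GABA and glycine receptors, right of 0.

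Nearly the whole rod phototransduction cascade was lower in KO. All 21 genes of the list were in the table, 17 were called lower and 0 higher, where 6.41% of all genes were called lower. Their median log2 fold change was -0.85, against 0.04 over all genes. In 19 of the 21, every KO library lay below both hets, against 20.4% of all genes. Summed over the list, the level was 105900 and 112100 CPM in het and 52160, 64130, 67750 and 51620 CPM in KO, so the het mean was 1.85-fold the KO mean. In bulk retina, fewer rods and less of these RNAs per rod cannot be told apart.

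Gnat1, the alpha subunit of rod transducin, was at 14420 and 14440 CPM in het and at 5827, 7300, 7659 and 4713 CPM in KO. KO replicates 1 and 4 were the lowest, and no KO library reached the het range. Gnat1 fell by 1.18 on the log2 scale (SE 0.24, edgeR adjusted p = 0.0140). The beta and gamma subunits of transducin also fell, Gnb1 by 0.80 and Gngt1 by 0.92 on the log2 scale (edgeR adjusted p = 0.0381 and 0.0161).

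The phosphodiesterase and the channel were both lower. Pde6a and Pde6b, the catalytic subunits, fell by 0.90 and 0.95 on the log2 scale, and Pde6g, the inhibitory subunit, fell by 0.95 (edgeR adjusted p = 0.0158, 0.0103 and 0.00665). Pde6g was at 1018 and 1040 CPM in het and at 449, 506, 622 and 556 CPM in KO. Cngb1 (ENSMUSG00000031789.17, chromosome 8, 95239045 to 95306585 in GRCm38), the modulatory subunit of the rod channel, was at 1697 and 1773 CPM in het and at 651, 846, 1074 and 735 CPM in KO. In neither gene did any KO library reach the het range. Cngb1 fell by 1.07 (SE 0.18, edgeR adjusted p = 0.00806) and Cnga1, the channel-forming subunit, by 0.74 (SE 0.16, edgeR adjusted p = 0.0163) on the log2 scale. Slc24a1 (ENSMUSG00000034452.7, chromosome 9, 64922861 to 64951607 in GRCm38), the exchanger that extrudes calcium from the rod outer segment, was at 4130 and 3959 CPM in het and at 1509, 1971, 2453 and 1475 CPM in KO. It fell by 1.13 on the log2 scale (SE 0.21, edgeR adjusted p = 0.0108), and here too KO replicates 1 and 4 were the lowest.

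Genes that end the light response were among the lower calls. Rcvrn (ENSMUSG00000020907.1, chromosome 11, 67695326 to 67703333 in GRCm38), recoverin, a calcium sensor of photoreceptors, was at 1270 and 1259 CPM in het and at 477, 649.5, 712 and 495 CPM in KO. It fell by 1.12 on the log2 scale (SE 0.17, edgeR adjusted p = 0.00672). Grk1, a receptor kinase of the cascade, fell by 0.69 and the rod arrestin, Sag, by 0.75 on the log2 scale (edgeR adjusted p = 0.0243 and 0.0266). Pdc (ENSMUSG00000006007.14, chromosome 1, 150319417 to 150333906 in GRCm38), phosducin, which binds the beta and gamma subunits of transducin, was at 5521 and 5475 CPM in het and at 2385, 2488, 3227 and 2534 CPM in KO. It fell by 1.05 on the log2 scale (SE 0.18, edgeR adjusted p = 0.00788). For Rcvrn and Pdc both hets lay close together, above a wider spread of KO libraries. In the complex that returns transducin to rest, Rgs9 fell by 0.62 and its anchor Rgs9bp by 0.85 (edgeR adjusted p = 0.0206 and 0.0171). Gnb5, the other member of that complex and one that other neurons also express, overlapped between groups at -0.21 (SE 0.12, edgeR adjusted p = 0.280).

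The guanylate cyclases that restore cyclic GMP did not all pass. Gucy2e fell by 0.76 and the cyclase activator Guca1b by 0.94 on the log2 scale (edgeR adjusted p = 0.0161 and 0.00688). Gucy2f, the other cyclase, overlapped between groups at -0.35 (SE 0.17, edgeR adjusted p = 0.201). Guca1a, the other activator, was at 11.7 and 9.86 CPM in het and at 7.22, 5.50, 5.93 and 6.55 CPM in KO. The groups did not overlap, and it missed the threshold at -0.72 (SE 0.21, edgeR adjusted p = 0.0524). Among the 4 KO libraries, replicate 3 was the highest in 13 of the 21 genes and replicate 1 the lowest in 13. The calls of 7 genes, Pde6g, Rcvrn, Guca1b, Pdc, Cngb1, Pde6b and Slc24a1, held in all 17 alternative fits. The list had 10 calls without het replicate 1, 8 without het replicate 2 and 8 without KO replicate 1, and its median was -0.90 to -0.79 over the fits that left out 1 library.

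**Figure D2:**
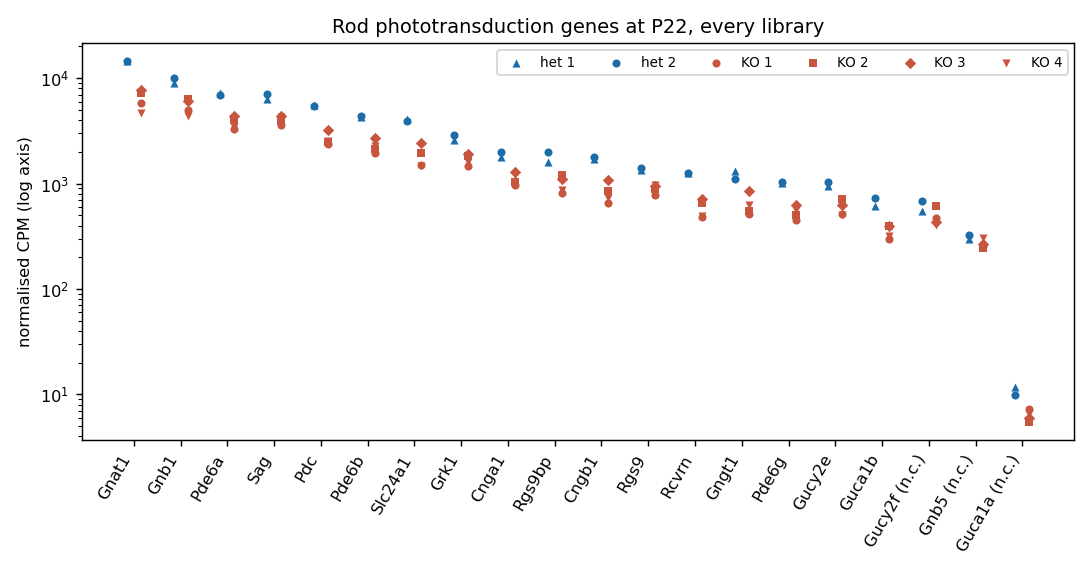
Normalised CPM (log axis) of 20 rod phototransduction genes in each P22 library, het in blue and KO in red, with 1 symbol for each library; n.c. marks genes that were not called. In 18 of these 20 genes all KO points lie below both het points.

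TAATCC is the core of the site bound by the photoreceptor factors CRX and OTX2, and TGCTGA is part of the site bound by NRL. Promoter windows from RefSeq (GRCm38.p6, 250 bases before to 50 bases after the start) were searched for both motifs on both strands. A window was given for 14 of the 21 rod phototransduction genes, and 8 of them (57.1%) hold TAATCC, against 7.16% of 27025 windows and 5.72% of the 8668 windows of tested genes. TGCTGA is in 4 of the 14 (28.6%), against 19.1% of all windows and 14.4% of those of tested genes. In the other lists searched it is in 27.3% of synaptic adhesion, 26.1% of outer segment, 23.1% of Müller glial, 16.7% of ribbon synapse, 15.4% of rod and ON bipolar and 8.33% of cone windows. The 250 bases before the start are shown for 4 photoreceptor genes called lower, picked after their matches and values were seen, so they are not a typical set. TAATCC lies nearer to the start than in Sag or Rbp3 in other genes called lower, such as Gucy2e (-42) and Gngt1 (-44). Sag, Aipl1 and Rbp3 hold both motifs, and among the 14 rod phototransduction windows only that of Sag does. Cngb1 and Sag belong to the cascade, Aipl1 is a chaperone of the phosphodiesterase, and Rbp3 carries retinoids between photoreceptors and pigment epithelium. Each is written 5′ to 3′ on the strand of its gene, and capitals mark TAATCC and TGCTGA or their reverse complements, GGATTA and TCAGCA.
Cngb1: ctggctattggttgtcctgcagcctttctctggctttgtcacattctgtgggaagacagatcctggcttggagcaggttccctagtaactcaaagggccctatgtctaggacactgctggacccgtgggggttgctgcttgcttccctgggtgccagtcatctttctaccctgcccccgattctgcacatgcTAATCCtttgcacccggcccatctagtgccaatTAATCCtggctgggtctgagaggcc
Sag: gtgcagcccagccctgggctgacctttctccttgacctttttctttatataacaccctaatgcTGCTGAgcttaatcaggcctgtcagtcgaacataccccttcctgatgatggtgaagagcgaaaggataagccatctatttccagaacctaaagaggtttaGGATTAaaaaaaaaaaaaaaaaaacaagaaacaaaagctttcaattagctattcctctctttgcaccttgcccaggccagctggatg
Aipl1: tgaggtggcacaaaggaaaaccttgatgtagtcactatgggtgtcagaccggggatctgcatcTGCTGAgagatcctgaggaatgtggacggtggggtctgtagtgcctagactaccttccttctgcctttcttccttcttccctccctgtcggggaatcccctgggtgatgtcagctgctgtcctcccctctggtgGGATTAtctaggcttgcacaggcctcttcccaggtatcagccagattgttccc
Rbp3: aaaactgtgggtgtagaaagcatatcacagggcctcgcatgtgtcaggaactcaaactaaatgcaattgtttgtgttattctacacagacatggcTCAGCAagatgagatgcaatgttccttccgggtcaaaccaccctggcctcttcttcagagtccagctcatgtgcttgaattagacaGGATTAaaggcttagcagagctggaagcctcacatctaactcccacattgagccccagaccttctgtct
They lie at chr8:95306586-95306835 on the minus strand (Cngb1), chr1:87803430-87803679 on the plus strand (Sag), chr11:72037510-72037759 on the minus strand (Aipl1) and chr14:33953753-33954002 on the plus strand (Rbp3). Counted from the start base, TAATCC matches begin at -58 and -25 in Cngb1, -87 in Sag, -53 in Aipl1 and -69 in Rbp3. Matches to TGCTGA begin at -187 in Sag, -187 in Aipl1 and -155 in Rbp3. Aipl1 fell by 0.79 and Rbp3 by 0.99 on the log2 scale (edgeR adjusted p = 0.0161 and 0.0239). Among the rod phototransduction windows, TAATCC is in 5 of the 11 of called genes and in all 3 of genes that were not called (Gucy2f, Guca1a and Gnb5). The called genes without it are Gnb1, Pde6b, Slc24a1, Grk1, Rgs9 and Pdc. TAATCC is in 26.1% of outer segment windows (6 of 23), 25% of cone windows (3 of 12), 23.1% of rod and ON bipolar windows (3 of 13), 16.7% of ribbon synapse windows, 15.4% of Müller glial windows and 4.55% of synaptic adhesion windows (1 of 22). A match describes the letters only, and no binding was measured.

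Genes that build and maintain the outer segment followed. All 27 were measured, 17 were called lower and 0 higher, and the median was -0.68. Summed, the level was 37700 and 39330 CPM in het and 22000, 26640, 27340 and 22810 CPM in KO, with no overlap. Reep6, which acts in membrane trafficking of rods, was at 1360 and 1243 CPM in het and at 463, 492, 651 and 418 CPM in KO. It fell by 1.36 on the log2 scale (SE 0.17, edgeR adjusted p = 0.00624), the largest fall among called genes without overlap and with a mean log2 CPM of at least 3. Tulp1, needed for transport of proteins to the outer segment, was at 2534 and 2191 CPM in het and at 739, 905, 1314 and 889 CPM in KO. KO replicate 3 was the highest KO library for both genes and still below both hets. Tulp1 fell by 1.30 on the log2 scale (SE 0.20, edgeR adjusted p = 0.00699).

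Nxnl1, the gene of rod-derived cone viability factor, was at 523 and 555 CPM in het and at 198, 237, 339.5 and 223 CPM in KO. It fell by 1.12 on the log2 scale (SE 0.18, edgeR adjusted p = 0.00772). Unc119 and Arl3, which carry and release lipid-modified proteins such as transducin, fell by 1.03 and 1.00 (edgeR adjusted p = 0.00657 and 0.00672). The calls of Reep6, Tulp1, Nxnl1, Unc119 and Arl3 held in all 17 alternatives. The list had 9 genes called lower without het replicate 2 and 11 without KO replicate 1.

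Genes of the connecting cilium, through which outer segment proteins pass, were mostly not called. Of 35 measured genes (36 in the list), 4 were called lower and 0 higher. The median was -0.14, and -0.26 to -0.13 when 1 library was left out. The share called lower was 11.4%, where 6.41% of all genes were. The called genes included Lca5 (-0.59), the intraflagellar transport gene Ift122 (-0.57) and the BBSome subunit Bbs1 (-0.52), with edgeR adjusted p of 0.0184, 0.0267 and 0.0351. The count was 0 without het replicate 2 or KO replicate 1, 1 without KO replicate 2, and 8 with offsets for transcript length and GC content.

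At the photoreceptor ribbon synapse, 9 of 22 genes were called lower and 0 higher, with a median of -0.36. Cplx4, a complexin of photoreceptor terminals, was at 903 and 999 CPM in het and at 405, 462, 584 and 478 CPM in KO. It fell by 0.98 on the log2 scale (SE 0.15, edgeR adjusted p = 0.00672). Slc17a7, the transporter that fills vesicles with glutamate, fell by 0.95 and the syntaxin Stx3 by 0.82 (edgeR adjusted p = 0.0106 and 0.0103). Elfn1, an adhesion protein through which rods contact rod bipolar cells, fell by 0.91, and Cabp4, which tunes the calcium channel of the terminal, by 0.84 (edgeR adjusted p = 0.00672 and 0.00790). Groups did not overlap in any of these 5 genes, which were named as the called genes with the largest falls. Over the list, every KO library lay below both hets in 11 of the 22 genes, against 20.4% of all genes. With the offsets and the replicate number as a block, 14 genes of the list were called lower.

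Cone genes had a median log2 fold change of -0.49. Of 16 measured, 7 were called lower and 0 higher. The summed level was 1994 and 1968 CPM in het and 1359, 1386, 1515 and 1409 CPM in KO. The cone phosphodiesterase gene Pde6c was at 282 and 266 CPM in het and at 138, 137, 169 and 153 CPM in KO. It fell by 0.88 on the log2 scale (SE 0.12, edgeR adjusted p = 0.00624), and no KO library reached the het range. Cone arrestin, Arr3, fell by 0.75 and short-wave opsin, Opn1sw, by 0.64 (edgeR adjusted p = 0.00624 and 0.00845). Cnga3, a subunit of the cone channel, and Gngt2, the cone transducin gamma subunit, fell by 1.06 and 1.02 (edgeR adjusted p = 0.00772 and 0.0111). Without het replicate 2 the count was 4. Whether the rod and cone lists differ was not tested.

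Photoreceptor transcription factors did not all move together. All 19 were measured, 8 were called lower and 1 higher, and the median was -0.42. Nr2e3, which represses cone genes in rods, was at 474 and 479.7 CPM in het and at 217, 224, 279 and 263 CPM in KO. It fell by 0.96 on the log2 scale (SE 0.13, edgeR adjusted p = 0.00624). Casz1 (ENSMUSG00000028977.17, chromosome 4, 148804429 to 148954889 in GRCm38), a zinc finger factor of photoreceptors, was at 554 and 560.1 CPM in het and at 230.2, 284, 297 and 326 CPM in KO. It fell by 0.97 (SE 0.14, edgeR adjusted p = 0.00624). For both genes the hets lay close together and no KO library came near them. Esrrb, an orphan nuclear receptor of rods, fell by 0.89, Ankrd33 by 0.85 and Mef2d by 0.72 on the log2 scale (edgeR adjusted p = 0.00772, 0.00624 and 0.00765). The calls of these 5 factors held in all 17 alternatives. The list had 5 genes called lower without het replicate 2, without KO replicate 1 or without KO replicate 2.

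Nrl, which sets rod against cone fate, was at 751 and 858 CPM in het and at 467, 553, 595 and 549.9 CPM in KO. It fell by 0.57 on the log2 scale (SE 0.13, edgeR adjusted p = 0.0236, and 0.113 without het replicate 2). Crx, the general activator of photoreceptor genes, was at 1798 and 1993 CPM in het and at 1226, 1469, 1402 and 1233 CPM in KO. For both genes every KO library lay below both hets. The call of Crx at -0.51 (SE 0.15, edgeR adjusted p = 0.0479) was lost in 9 of the 17 alternatives, with an adjusted p of up to 0.194 without het replicate 2. Neurod1, a basic helix-loop-helix factor, fell by 0.55 (edgeR adjusted p = 0.0221, and 0.100 without het replicate 2). Otx2, which acts upstream of Crx, was at 146 and 161 CPM in het and at 130.1, 134, 146 and 135 CPM in KO. It was not called (log2 fold change -0.18, SE 0.11, edgeR adjusted p = 0.310). Neurod2 was the 1 factor called higher, at 6.41 and 6.55 CPM in het and at 12.8, 11.9, 12.2 and 8.89 CPM in KO. It rose by 0.81 (SE 0.23, edgeR adjusted p = 0.0478), and the call was lost in 8 alternatives. Samd11 (-0.64), Thrb (-0.35), Samd7 (-0.29), Prdm1 (-0.42), Tbx2 (0.52), Mef2c (-0.24), Rxrg (-0.36), Rorb (-0.14) and Nr1d1 (-0.02) missed the threshold. Of these, Samd11 and Thrb had the lowest edgeR adjusted p, 0.0527 and 0.0649.

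Part of the glycolysis and lactate transport genes were lower. Of 23 measured entries (22 symbols, Aldoa having 2 entries), 8 were called lower and 1 higher, with a median of -0.34. Hk2 (ENSMUSG00000000628.10, chromosome 6, 82725025 to 82774454 in GRCm38), the hexokinase of photoreceptor aerobic glycolysis, was at 533 and 553 CPM in het and at 252, 309, 331 and 193 CPM in KO. It fell by 1.00 on the log2 scale (SE 0.18, edgeR adjusted p = 0.0100), with no overlap. Hk1, the other hexokinase, fell by 0.93, Pkm by 0.67, Pgam1 by 0.62 and Pfkl by 0.61 (edgeR adjusted p = 0.00672, 0.0304, 0.0288 and 0.0217). Slc16a7, a monocarboxylate transporter, was at 14.6 and 12.6 CPM in het and at 32.9, 28.3, 23.6 and 25.5 CPM in KO. It rose by 1.08 (SE 0.19, edgeR adjusted p = 0.00895). Calls of Hk1 and Hk2 held in all 17 alternatives, but the count of lower genes was 4 without het replicate 1, 3 without het replicate 2, 2 without KO replicate 1, 4 without KO replicate 2 and 5 with the length and GC offsets.

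For genes of mitochondrial respiration and of the ribosome the counts of calls depended on the fit. Of 78 nuclear-encoded genes of oxidative phosphorylation, 4 were called lower, among them Atp5b (-0.76), Uqcrc1 (-0.63) and Atp5a1 (-0.56), and 0 higher. That is 5.13%, no more than the 6.41% of all genes called lower. The median was -0.24, and the count was 1 without het replicate 1, 2 without KO replicate 1 or KO replicate 2 and 8 without KO replicate 3. Of 78 ribosomal protein genes, 4 were called lower, Fau, Rpl4, Rps27a and Rpl5, and 0 higher. The median was -0.25, and -0.41 to -0.15 when 1 library was left out. The share called lower was again 5.13%, against 6.41% of all genes. That count was 1 without KO replicate 1, 2 without het replicate 1 or KO replicate 2 and 11 without KO replicate 3. With limma-voom 16 oxidative phosphorylation genes and 13 ribosomal protein genes were called lower, and with DESeq2 10 and 7. In the citric acid cycle 1 of 22 genes was called lower (4.55%, against 6.41% of all genes) and 0 higher. The called gene was Mdh2, which fell by 0.45 (edgeR adjusted p = 0.0381). The Mdh2 call was lost in 10 of the 17 alternatives, among them those without KO replicate 1, KO replicate 2 or KO replicate 4. With the offsets and the replicate number as a block, Mdh2 was at -0.23.

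Very long chain and polyunsaturated fatty acids are built into outer segment discs, and their synthesis genes went both ways. Of 17 measured genes (21 in the list), 4 were called lower and 2 higher. Adipor1, which helps photoreceptors retain docosahexaenoic acid, fell by 0.94 and the acyltransferase Agpat3 by 0.87 on the log2 scale (edgeR adjusted p = 0.00845 and 0.00790). Elovl4, the elongase of very long chains, fell by 0.52 and Acsl6 by 0.41 (edgeR adjusted p = 0.0262 and 0.0359). Acsl3 and Fads6 rose by 0.61 and 0.84 (edgeR adjusted p = 0.0152 and 0.0219). Without het replicate 2 or KO replicate 1, 2 were called lower and 0 higher. In cholesterol synthesis edgeR called 0 of 21 genes, and Msmo1 and Hmgcs1 had the smallest adjusted p (0.0801 and 0.0903).

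Some chaperone and stress genes fell, but most passed no test. Of 21 measured genes of endoplasmic reticulum stress and heat shock (26 in the list), 9 were called lower and 1 higher, with a median of -0.44. Calr, a calcium-binding chaperone, was at 1661 and 1541 CPM in het and at 669, 817, 1080 and 679 CPM in KO. It fell by 0.98 on the log2 scale (SE 0.19, edgeR adjusted p = 0.0121), with no overlap. Pdia4, a disulfide isomerase, fell by 0.82 and Atf4, a transcription factor of the stress response, by 0.63 (edgeR adjusted p = 0.00788 and 0.0257). Hspa1a and Hspa1b fell by 0.97 and 1.15 (edgeR adjusted p = 0.0299 and 0.0128), but they are near-identical copies and their split is uncertain. Asns, asparagine synthetase, rose by 0.64 (edgeR adjusted p = 0.0351). The count of lower genes was 3 when het replicate 1, het replicate 2, KO replicate 1 or KO replicate 2 was left out. Of 15 measured apoptosis genes (26 in the list), 2 were called. That is 13.3%, near the 11.2% of all genes called in either direction. Xiap, an inhibitor of caspases, fell by 0.70 and Cycs, cytochrome c, by 0.52 (edgeR adjusted p = 0.0239 and 0.0396), and 0 were called without KO replicate 1 and 1 without any other single library.

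Some Müller glial markers rose and none was called lower. All 22 were measured, 10 were called higher and 0 lower, where 4.74% of all genes were called higher, and the median was 0.55. In 18 of the 22, every KO library lay above both hets, against 20.3% of all genes. Summed, the markers reached 2163 and 2047 CPM in het and 3501, 3288, 3185 and 2703 CPM in KO, and the KO mean was 1.51-fold the het mean. Medians of other lists included 0.62 for rod and ON bipolar, 0.57 for cone bipolar, 0.52 for vascular and 0.48 for horizontal cell markers. They were 0.38 for amacrine, 0.07 for ganglion cell and -0.68 for pigment epithelium markers. Levels are relative to the other genes of a library. In bulk retina, a larger share of these cells and more RNA per cell cannot be told apart. Aqp4, the water channel of glial endfeet, was at 53.7 and 70.5 CPM in het and at 153, 146, 138 and 112 CPM in KO. It rose by 1.11 on the log2 scale (SE 0.17, edgeR adjusted p = 0.00657). Slc1a3 (ENSMUSG00000005360.14, chromosome 15, 8634124 to 8710764 in GRCm38), the glutamate transporter of Müller glia, was at 81.6 and 93.4 CPM in het and at 179, 169, 167 and 152 CPM in KO. In both genes KO replicate 4 was the lowest KO library and lay above both hets. Slc1a3 rose by 0.92 (SE 0.13, edgeR adjusted p = 0.00624).

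Abca8a, a transporter, rose by 1.17 on the log2 scale, Kcnj10, the channel that siphons extracellular potassium, by 0.85, and the intermediate filament gene Vim by 0.84 (edgeR adjusted p = 0.00624, 0.0229 and 0.00624). Rlbp1, the retinaldehyde carrier of Müller glia and pigment epithelium, rose by 0.78 (edgeR adjusted p = 0.0116). KO replicate 1 was the highest KO library in 17 of the 22 markers and KO replicate 4 the lowest in 16. The count was 5 without het replicate 2, KO replicate 1 or KO replicate 2, and 13 with the length and GC offsets.

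Of the genes of reactive gliosis, 9 of 21 were measured and 2 were called higher. Ednrb, an endothelin receptor, rose by 1.24 on the log2 scale (edgeR adjusted p = 0.0167). Cp, the ferroxidase ceruloplasmin, was at 104 and 152 CPM in het and at 259, 301, 253 and 232 CPM in KO. It rose by 1.00 (SE 0.17, edgeR adjusted p = 0.00772), and every KO library lay above both hets. Gfap, the filament of reactive glia, was not called and overlapped (log2 fold change 0.48, SE 0.23, edgeR adjusted p = 0.192). Without het replicate 2 or KO replicate 1 the list had 1 call. EdgeR called 0 of the 6 measured complement and interferon genes (24 in the list), B2m being at an adjusted p of 0.312.

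Some bipolar cell markers rose. Of 16 measured markers of rod and ON bipolar cells (18 in the list), 7 were called higher and 0 lower, with a median of 0.62. Car8 was at 45.5 and 63.3 CPM in het and at 127, 141, 106 and 98.9 CPM in KO. It rose by 1.08 on the log2 scale (SE 0.19, edgeR adjusted p = 0.00811). Cabp5, a calcium-binding protein of bipolar cells, was at 59.5 and 85.1 CPM in het and at 137, 136, 144 and 122.8 CPM in KO. For both genes het replicate 1 was the lowest of the 6 libraries and the groups did not overlap. Cabp5 rose by 0.86 (SE 0.15, edgeR adjusted p = 0.00907). Sebox, Nyx, which encodes nyctalopin of the ON synapse, and Strip2 rose by 0.99, 0.92 and 0.86 (edgeR adjusted p = 0.0226, 0.0325 and 0.0127). Without het replicate 2 Sebox was at 1.69 and Nyx at 1.56. For cone bipolar cells, 4 of 13 measured markers were called higher, Neto1 (1.10), Scgn (1.01), the kainate receptor Grik1 (0.88) and Zfhx4 (0.46), with a list median of 0.57. That count was 2 with libraries thinned to the depth of the shallowest and 7 without KO replicate 4.

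Inner retinal neurons gave counts that rested on single libraries. Of 19 measured amacrine markers, 2 were called higher, Tfap2c (1.11) and the choline transporter Slc5a7 (0.94), and Tfap2c was at 0.65 without het replicate 2. The amacrine count was 0 without het replicate 2 or KO replicate 1 and 5 without het replicate 1. Of 9 measured horizontal cell markers, 3 were called higher, Prox1 (0.76), Calb1 (0.75) and Tnr (0.60). The horizontal count was 0 without KO replicate 1 or KO replicate 2 and 1 without het replicate 1, het replicate 2 or KO replicate 3. EdgeR called 0 of 14 measured ganglion cell markers, and Ebf1 had the lowest adjusted p (0.151). Their summed level was 2448 and 886 CPM in het and 1655, 1584, 1643 and 1430 CPM in KO, so the hets enclosed the KO libraries. Het replicate 1 was above het replicate 2 in 14 of 14 ganglion markers, with a median ratio of 2.59. Without het replicate 1 the median was 0.82 with 11 called higher, and without het replicate 2 it was -0.60 with 5 called lower. The direction for ganglion cells thus depends on which het is used.

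**Figure D3:**
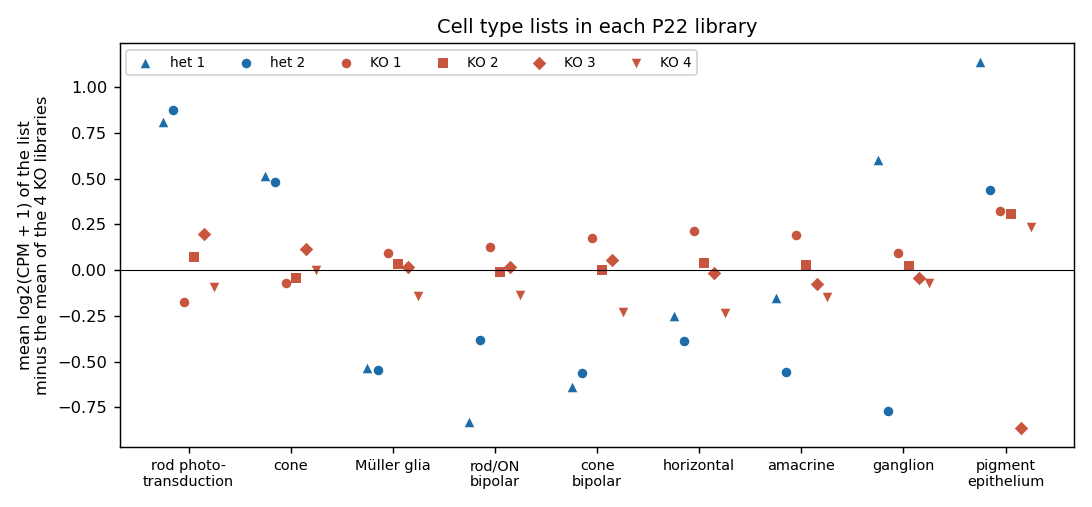
Mean log2(normalised CPM + 1) of each cell type list in each P22 library, minus the mean of the 4 KO libraries, with het in blue and KO in red. Het libraries lie above the KO libraries for rod and cone genes and below them for Müller glia and bipolar cells, while for ganglion cells het 1 and het 2 lie on opposite sides.

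Some neurotransmitter receptor genes rose in several families. Of 20 measured GABA and glycine receptor genes (22 in the list), 12 were called higher and 0 lower, with a median of 0.85. Gabrr1 (ENSMUSG00000028280.9, chromosome 4, 33132521 to 33163588 in GRCm38), a subunit of the GABA receptor on bipolar cell terminals, was at 51.3 and 65.9 CPM in het and at 163, 135, 144 and 105 CPM in KO. It rose by 1.18 on the log2 scale (SE 0.19, edgeR adjusted p = 0.00708). The glycine receptor subunit gene Glra3 was at 28 and 21 CPM in het and at 70.9, 67.7, 48.7 and 52.5 CPM in KO. In neither gene did the groups overlap. Glra3 rose by 1.37 (SE 0.21, edgeR adjusted p = 0.00662). Glra2, another glycine receptor subunit, and the GABA receptor subunits Gabrg1 and Gabra4 rose by 1.22, 1.22 and 1.17 (edgeR adjusted p = 0.00772, 0.00981 and 0.0323). The median GC content of the list was 42.1%, against 48.4% over all genes, and with the offsets 11 were called, with a median of 0.72. The count was 3 without het replicate 2, 7 without KO replicate 1 and 8 at equal depth.

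Of 21 measured glutamate receptor genes (25 in the list), 10 were called higher and 0 lower, with a median of 0.55. Grm5, a metabotropic receptor, was at 18.7 and 22.8 CPM in het and at 46.4, 43.4, 43.2 and 34 CPM in KO. It rose by 0.95 on the log2 scale (SE 0.17, edgeR adjusted p = 0.00895), with no overlap. The kainate receptor genes Grik2 and Grik1 rose by 0.99 and 0.88 (edgeR adjusted p = 0.0122 and 0.00811), and Grik2 was at 1.5 without het replicate 2. Grin3a, of the NMDA class, rose by 0.82 (edgeR adjusted p = 0.0219). The count was 4 without het replicate 2 or KO replicate 1 and 6 at equal depth.

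Synaptic adhesion genes had 14 of 31 measured genes called higher (34 in the list) and 0 lower, with a median of 0.60. Cdh8, a cadherin, was at 12.3 and 22.8 CPM in het and at 60.2, 56.5, 59.4 and 45.7 CPM in KO. It rose by 1.49 on the log2 scale (SE 0.21, edgeR adjusted p = 0.00624). Slitrk4, a synaptic adhesion protein gene, was at 2.92 and 3.69 CPM in het and at 12.8, 15.4, 10.3 and 9.09 CPM in KO, where the value of het replicate 1 is 5 reads. For both genes every KO library was well above both hets. Slitrk4 rose by 1.74 (SE 0.30, edgeR adjusted p = 0.00800). Slitrk2, Slitrk6 and Cdh9 rose by 1.36, 1.19 and 1.05 (edgeR adjusted p = 0.00624, 0.00624 and 0.0304). The Cdh9 value in het replicate 1 is 5 reads, and its log2 fold change was 2.33 without het replicate 2. The median GC content of the list was 45.3%, and with the offsets 11 were called, with a median of 0.46. The count was 8 without het replicate 2 and 9 without KO replicate 1.

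Eph receptors and ephrins, which guide axons and sort cells, had 4 of 13 measured genes called higher (21 in the list), with a median of 0.59. Epha4 (ENSMUSG00000026235.14, chromosome 1, 77367185 to 77515088 in GRCm38) was at 25.1 and 25.7 CPM in het and at 56, 60, 55.5 and 49.6 CPM in KO. It rose by 1.12 on the log2 scale (SE 0.14, edgeR adjusted p = 0.00624), with no overlap. Epha3, Epha5 and Epha7 rose by 0.97, 0.74 and 0.72 (edgeR adjusted p = 0.00800, 0.00772 and 0.0163). The count was 7 with library totals and 8 with limma-voom.

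Potassium channels moved in both directions. Of 28 measured genes (31 in the list), 7 were called higher and 3 lower. Kcnv2, a channel subunit of photoreceptors, and Kcnj14 fell by 0.51 and 0.96 on the log2 scale (edgeR adjusted p = 0.0319 and 0.00909). Kcnma1, the large-conductance calcium-activated channel, was at 259 and 304 CPM in het and at 534, 482, 469 and 467 CPM in KO. It rose by 0.79 (SE 0.13, edgeR adjusted p = 0.00772), and the groups did not overlap. Higher calls also covered Kcnj2 (0.85), Kcnk1 (0.76) and Kcnb2 (0.66). The groups overlapped for Kcnj2, which was at 0.25 without het replicate 2, as Kcnk1 was at 0.44, and Kcnb2 was at 0.27 with length and GC offsets. The count of higher genes was 1 without het replicate 2, KO replicate 1 or KO replicate 2, 3 without KO replicate 3 and 11 without het replicate 1. Notch signalling genes had 2 of 15 measured genes called higher, Id2 (0.82) and Id4 (0.73), inhibitors of basic helix-loop-helix factors. That count was 0 without KO replicate 1 or KO replicate 2 and 1 without any other single library. EdgeR called 0 of 18 circadian clock genes, Nr1d2 having the lowest adjusted p (0.114).

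Markers of other cells that a retina sample can hold were checked alongside. Endothelial and pericyte markers had 7 of 18 measured and 3 called higher, Rgs5 (0.98), Kdr (0.73) and Flt1 (0.52). Their summed level was 325 and 330.1 CPM in het and 457, 447, 404 and 366 CPM in KO, and the count was 1 without het replicate 1 or KO replicate 1. Astrocyte markers had 5 of 6 measured and 2 called higher, Igf1 (1.28) and Pdgfra (1.00), and the count was 1 without het replicate 2. EdgeR called 0 of the 3 measured microglial markers (18 in the list), at sums of 20.3 to 29.2 CPM in het and 21.7 to 32.5 CPM in KO. None of the 15 lens and cornea markers was in the table. Pigment epithelium and melanocyte markers had 8 of 16 measured, at summed levels of 443 and 255 CPM in het and 214, 234, 104 and 219 CPM in KO. Of these, 2 were called lower, Dct (-1.27), an enzyme of melanin synthesis, and Krt18 (-0.78), and the count was 0 without het replicate 1, KO replicate 1 or KO replicate 2 and 1 without KO replicate 3. The part of these cells in the results was not tested.

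The largest falls among called genes without overlap and with a mean log2 CPM of at least 3 were those of Reep6, Tulp1, Dct, Gnat1, Hspa1b, Slc24a1, Nxnl1, Rcvrn, Zfp385a and Tma7. Zfp385a, a zinc finger gene (ENSMUSG00000000552.10, chromosome 15, 103313895 to 103340093 in GRCm38), was at 482 and 439 CPM in het and at 196, 221, 264 and 166 CPM in KO. It fell by 1.12 on the log2 scale (SE 0.16, edgeR adjusted p = 0.00624). Tma7 fell by 1.09 (edgeR adjusted p = 0.00880), but a pseudogene of it shares its sequence and the value is uncertain. The largest rises were those of Etnppl, Slitrk4, Gsg1, Cdh8, A730046J19Rik, Glra3, Slitrk2, Gm37296, Gm22009 and B3galt2. Gm37296 had a log2 fold change of 1.36, and 2.08 without het replicate 2. Etnppl, a phosphoethanolamine lyase, was at 6.41 and 3.97 CPM in het and at 23.3, 16.6, 13.8 and 19.3 CPM in KO. It rose by 2.05 (SE 0.30, edgeR adjusted p = 0.00624), and 11 reads stand behind its value in het replicate 1. B3galt2, a galactosyltransferase, was at 67.1 and 106 CPM in het and at 237, 245, 199.6 and 216 CPM in KO. For both genes all KO libraries lay above both hets, as the rule for this ranking requires. B3galt2 rose by 1.33 and Gsg1 by 1.72 (edgeR adjusted p = 0.00624 and 0.00624). The Gsg1 value in het replicate 1 is 5 reads, and its edgeR adjusted p was 0.0733 with libraries thinned to the shallowest. Of the 10 falls, those of Dct, Gnat1 and Hspa1b lost the call in at least 1 of the 17 alternatives, and of the 10 rises, those of Etnppl, Slitrk4, Gsg1 and Glra3 did.

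The direction of change also went with base composition. Genes called higher had a median GC content of 43.8%, genes called lower 53.4%, and all tested genes 48.4%. Over 5 equal classes of rising GC content, the median log2 fold change ran from 0.24 through 0.11, 0.02 and -0.08 to -0.16. Calls were 234 higher and 28 lower in the lowest class and 17 higher and 290 lower in the highest. The trend was uneven between libraries. The Spearman correlation of GC content with each library's deviation from the mean of all P22 libraries was 0.49 in the shallow het replicate 1 and 0.10 in het replicate 2. It was -0.27, -0.38, 0.01 and -0.36 in KO replicates 1 to 4. With offsets for length and GC in the same test, 430 genes were called higher and 1007 lower, and 941 of the 1295 genes were called again. The offsets left rod phototransduction at a median of -0.86 with 18 called lower and the outer segment at -0.66 with 17. Müller glial markers stood at 0.60, rod and ON bipolar markers at 0.53 with 6 called higher, and glutamate receptors at 0.43 with 7.

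**Figure D4:**
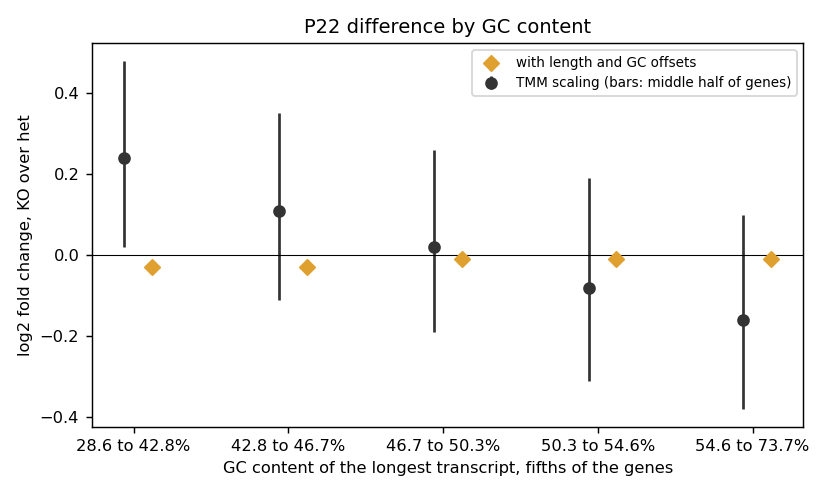
Median log2 fold change of KO over het at P22 (y axis) in 5 equal classes of the tested genes by GC content (x axis, percent), with TMM scaling, bars over the middle 50% of genes, and with length and GC offsets (orange diamonds). With TMM the medians run from 0.24 to -0.16, and with offsets from -0.03 to -0.01.

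The newborn libraries allowed a test of whether the genotype difference itself depended on age. Both ages were prepared with different library kits, so levels were not compared between ages and only the interaction was tested. Of 11428 genes in both tables, 468 (4.10%) differed in their genotype effect at an edgeR adjusted p under 0.05. At P22 the effect was more negative in 267 (2.34%) and more positive in 201 (1.76%). With library totals in place of TMM the split turned round, with 150 more negative and 628 more positive. Of the 18 rod phototransduction genes in both tables, 12 had a more negative effect at P22 and 0 a more positive one, and the median difference was -1.13. Their median log2 fold change at P0 was 0.12.

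Pdc had a log2 fold change of 0.39 (SE 0.12) at P0 and -1.05 at P22, which is a shift by -1.48 (edgeR adjusted p = 0.00485, SE 0.22). Cnga1 went from 0.67 to -0.74, which is a shift by -1.46 (edgeR adjusted p = 0.0137, SE 0.29), and Nr2e3 from 0.15 to -0.96, which is a shift by -1.15 (edgeR adjusted p = 0.00616, SE 0.18). The shift comes from a joint fit of both ages and so is not exactly the difference of the separately fitted values. None of the 3 genes passed at P0 (edgeR adjusted p = 0.526, 0.526 and 0.603). Gnat1, at -0.50 (SE 0.23) at P0, missed the threshold of the interaction, with a difference of -0.72 (edgeR adjusted p = 0.248).

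The effect was more negative at P22 in 17 of 27 outer segment genes, 8 of 14 cone genes, 8 of 19 photoreceptor transcription factors and 7 of 22 ribbon synapse genes. It was more positive in 6 of 20 Müller glial markers. Without het replicate 2 of P22 the rod count was 1 of 18 and the count over all genes 52, with a rod median difference of -1.04. Without KO replicate 1 of P22 they were 9 and 195, and without KO replicate 2 of P22 12 and 293. The counts of the other lists were also smaller without het replicate 2 of P22, at 3 outer segment genes, 3 cone genes, 1 transcription factor, 2 ribbon synapse genes and 1 Müller marker. Without KO replicate 1 of P22 they were 10, 6, 4, 6 and 4 in the same order, and with the replicate number as a block 9, 5, 3, 6 and 6. With the block the rod count and the count over all genes were 7 and 275, and without KO replicate 3 of P0, a setting chosen after seeing the data, 13 and 1225. In that setting the other lists, in the same order, had 19, 11, 9, 10 and 14, and with library totals 13, 5, 5, 6 and 10.

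**Figure D5:**
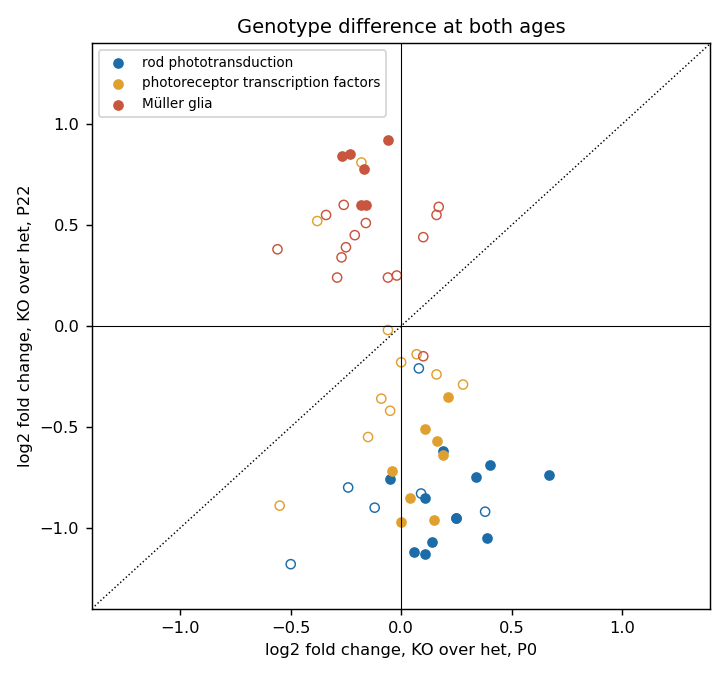
Log2 fold change of KO over het at P0 (x axis) and at P22 (y axis) for genes of 3 lists found in both tables; filled circles passed the interaction test (edgeR adjusted p under 0.05) and the dotted line marks equal effects. The 18 rod phototransduction genes (blue) all lie below the line, and Müller glial genes (red) lie mostly above it.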

How the data were processed

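RNA-seq of whole P22 mouse retina was analysed from the raw read counts per gene that the authors deposited for 2 Peanut +/- and 4 Peanut -/- libraries, with the raw counts of 8 P0 libraries for the interaction. Trim Galore, STAR, HTSeq, edgeR and mm10 are named per the submitters' processing notes. The annotation, the use of strand in counting and the gene filter are not given in the sources used here. Retinas were frozen in Trizol, and P22 and P0 libraries were made with different library kits, per the labels' protocols. The deposited CPM values were used only to recover each library total (count divided by CPM). The log2 fold changes and p-values of the authors' own comparison, in the same deposited tables, were not used.

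Counts were fitted with edgeR 4.0.16 in R 4.3.3 (filterByExpr, which removed 0 of 11613 genes, TMM scaling, quasi-likelihood F test), and p-values were adjusted by Benjamini-Hochberg across the whole table, with calls made under 0.05. The standard error is the absolute log2 fold change divided by the square root of F. Coordinates come from GENCODE M21 (GRCm38), which matched 11610 of 11613 identifiers. On simulated counts for 11613 genes with 200 changed, the test recovered 83% of 2-fold and 100% of 4-fold changes, with 16 false calls. Alternatives were DESeq2 1.42.0, limma-voom (limma 3.58.1) with sample weights, other scalings, filters, thinning, length and GC offsets, a replicate block and leaving out each library.

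The gene lists and members were chosen with earlier results of these data known. Named genes are the 10 largest called rises and falls without overlap and with a mean log2 CPM of at least 3, all rod phototransduction and photoreceptor transcription factor genes (a few genes under this rule are not reported here), and up to 5 called members per direction of each other list, or the 2 with the smallest p where none was called. Aipl1, Rbp3 and Gfap were named after their values were seen. Intervals of depth cover counting error only. Long nuclear RNAs had 1 of 8 called higher (Rian, 0.51), blood markers 0 of 2 measured, mitochondrially encoded entries 0 of 12, retinoid genes 1 called higher (Rlbp1) and 1 lower (Dhrs3), rod markers 14 of 15 lower, and replication-dependent histone genes none measured. Fewer rod markers were called without het replicate 2. Their median was -0.95, and -1.03 to -0.88 when 1 library was left out.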

Additional observations from a re-analysis of the deposited data

Results flagged for a closer look

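The gap between an extreme KO library and its nearest neighbour, divided by the range of the 4 KO libraries, exceeded Dixon's 95% critical value in 4 of 210 groups tested, where chance gives about 1 in 20. Abca8a reached 0.86, with KO replicate 4 low (190, 190, 183 and 141 CPM in KO replicates 1 to 4). The mean level of the citric acid cycle genes reached 0.882, with KO replicate 3 high. The mean level of pigment epithelium and melanocyte markers reached 0.927, with KO replicate 3 low, and the Y-linked genes reached 0.95, with KO replicate 2 near 0.

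The genotype effect differed between ages, by the edgeR interaction term, in 468 genes. Among the named members, the difference (P22 minus P0, log2) in the rod cascade was -1.48 for Pdc, -1.46 for Cnga1, -1.27 for Slc24a1, -1.26 for Cngb1, -1.24 for Pde6g, -1.24 for Pde6b and -1.22 for Rcvrn. It was -1.14 for Sag, -1.13 for Grk1, -1.0 for Rgs9bp, -0.85 for Rgs9 and -0.74 for Gucy2e. Among transcription factors it was -1.15 for Nr2e3, -1.01 for Casz1, -0.93 for Ankrd33, -0.87 for Samd11, -0.78 for Nrl, -0.73 for Mef2d, -0.66 for Crx and -0.61 for Thrb.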

How the results depend on the processing

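The 1295 calls became 2675 with limma-voom and 172 when a change of at least 1 on the log2 scale in either direction was also required, and ranged from 344 to 1273 when 1 library was left out. The other alternatives gave counts within 1.5 times, with 1489 by DESeq2 and 1760 with the replicate number as a block. Replicate numbers pair nothing in the labels. Deviations from the group mean correlated between same-numbered libraries at 0.202 (replicate 1) and -0.089 (replicate 2). With 2 hets both values rest on the same difference between them, so they cannot show whether same-numbered libraries share anything. The 468 interaction calls became 778 with library totals and 275 with the replicate block, ranged from 52 to 610 when 1 P22 library was left out, and were 1225 without KO replicate 3 of P0, chosen after seeing the data. Of 141 called named genes, 64 kept the call in all 17 alternative fits, to which the size requirement was not added, and Rian changed sign (-0.08 with length and GC offsets). Of the 141, 33 moved by over 1.5 times in at least 1 setting, 8 without het replicate 2, 20 with offsets and block, 1 after thinning (Sebox, 1.52) and 15 with offsets, among them Acsl3 (0.39), B3galt2 (0.81), Calb1 (0.29), Cycs (-0.79), Epha5 (0.43), Fau (-0.32), Glra3 (0.89), Gngt1 (-1.43), Grik2 (0.62), Kcnb2 (0.27), Slc16a7 (0.71), Xiap (-1.20) and Zfhx4 (0.25). Of 39 gene lists, 13 had over 1.5 times as many calls with limma-voom, 12 with offsets and block, and 6 with the block, where ribosomal protein genes had 32 lower calls and oxidative phosphorylation genes 18. Calls fell by over 1.5 times in 24, 14, 5 and 3 lists without KO replicates 1 to 4 in turn, and in 8 after thinning. Medians that changed sign were those of fatty acid synthesis (0.07 with library totals, 0.05 with limma-voom, 0.07 without het replicate 1, 0.01 without KO replicate 4, 0.08 with the replicate block, and from -0.09 to 0.07 when 1 library was left out), potassium channels (-0.08 without het replicate 2, up to 0.65 without het replicate 1) and Notch genes (-0.03 without het replicate 2), long nuclear RNAs (-0.02 with offsets and block), ganglion cell markers (0.07, down to -0.60 without het replicate 2), microglial markers (0.20, and -0.21 without het replicate 2), apoptosis genes (-0.03, up to 0.11 with library totals), mitochondrially encoded genes (0.07, down to -0.30 with offsets and block) and X inactivation and Y-linked genes (-0.16, and 0.26 without KO replicate 2). Uncalled genes that changed sign without het replicate 2 were Mef2c (0.07, against -0.46 without het replicate 1), B2m (-0.12, against 0.75), Ebf1 (-0.04, against 0.91), Nrn1 (-0.23, against 1.09), Ctss (-0.23, against 0.67), Cx3cr1 (-0.21, up to 0.35 without KO replicate 4) and Uty (0.12, and 0.16 without KO replicate 2, -0.51 without KO replicate 4, and down to -4.05 with limma-voom). Ctss was -0.16 and mt-Tv 0 after thinning, and mt-Rnr1 -0.05 with offsets and block. Nr1d1 was 0.11 with library totals, 0.09 with limma-voom, 0.10 without het replicate 1, -0.19 without het replicate 2, 0.06 without KO replicate 4, 0.03 with the block, 0.04 after thinning, 0.13 with offsets and 0.22 with offsets and block. Eif2s3y was -2.79 with limma-voom, -2.24 with the block, -0.11 with offsets and -2.72 with offsets and block. The cause of these changes was not tested. With every library thinned to the depth of het replicate 1, the shallowest, edgeR called 870 genes.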
